A study of Mus musculus with 2 samples.

Results

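The interferon gamma axis was followed from source to response in CD45+ cells of TSA tumours through 8 genes chosen by name: the cytokine Ifng, the receptor chains Ifngr1 and Ifngr2, the kinases Jak1 and Jak2, the transcription factors Irf1 and Irf8, and the inhibitor Socs1. All 8 were among the 27998 genes of the files. Lymphocytes were gated by UMIs (unique molecular identifiers, counted transcripts) of Cd3e, Cd8a and Ncr1, and myeloid cells were taken as clusters, with the 8 genes and the pathway lists kept out of the clustering. TSA cells, a mammary carcinoma line, had been injected under the skin of Balb/c mice, which were left untreated or given NAM (nicotinamide) at 0.5% in the drinking water for 10 days. Each group was 1 library from tumours of 3 mice pooled before CD45+ cells were separated with magnetic beads, so the spread between mice was not measured and no difference could be tested.

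In background, interferon gamma is released mainly by activated T and NK cells. It binds a receptor of 2 chains, Ifngr1, which holds the ligand and Jak1, and Ifngr2, which brings Jak2. The paired kinases carry the signal to the nucleus, where palindromic sites (TTCNNNGAA) are bound near target genes such as Irf1, a factor that in turn drives antigen presentation and chemokine genes. Irf8 is a myeloid lineage factor that interferon gamma also induces, and Socs1 blocks the kinases, closing a negative feedback loop.

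The untreated library held 2922 cells and 29161823 UMIs, and the NAM library 3276 cells and 32090120 UMIs, with medians of 9056 and 9128 UMIs per cell. Of the barcodes, 11 occurred in both libraries, 1 of them in the same cluster. Heat shock and blood RNA differed between the libraries. Among macrophage-like cells the heat shock gene Hspa1a was at 1078 CPM (counts per 1000000 UMIs) in untreated and 393 CPM in NAM cells, and 31.6% and 45.8% of these cells had neither an Hspa1a nor an Hspa1b UMI. The share of cells without these UMIs was 67.4% and 85% in the Cd3e+ Cd8a+ gate, 63.7% and 78.9% in the Cd3e+ Cd8a- gate and 63.2% and 90% in the Cd3e- Ncr1+ gate, and its part in the ratios of these gates was not tested. In monocyte-like cells the share was 52.7% and 64.6%, and in dendritic-like cells 29.2% and 42.7%. Haemoglobin RNA was concentrated in a few NAM cells, with 6639 of the 6685 haemoglobin UMIs of the Cd3e+ Cd8a+ gate in 1 cell. Without cells of 10 or more haemoglobin UMIs the Ifng log2 ratio of that gate was 0.32 (-0.04 to 0.69).

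The promoters of the 3 response genes are shown because interferon gamma is known to act on such genes through short sites near the start. The sequences are the 200 bases before the first RefSeq transcription start (GRCm38.p6, the assembly also called mm10), read 5′ to 3′ on the strand of the gene, from the reference genome and not from the Balb/c mice. Capitals mark TTCNNNGAA (its own reverse complement) or a GAAA repeat, GAAA followed by GAAA after 2 bases of any kind (both strands searched), a pattern read by interferon regulatory factors.
Irf1, chr11:53769814-53770013, plus strand: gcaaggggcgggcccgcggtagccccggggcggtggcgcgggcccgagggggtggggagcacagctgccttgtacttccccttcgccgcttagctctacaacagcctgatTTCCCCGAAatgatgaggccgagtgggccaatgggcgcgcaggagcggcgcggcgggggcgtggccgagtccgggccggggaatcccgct
Irf8, chr8:120736158-120736357, plus strand: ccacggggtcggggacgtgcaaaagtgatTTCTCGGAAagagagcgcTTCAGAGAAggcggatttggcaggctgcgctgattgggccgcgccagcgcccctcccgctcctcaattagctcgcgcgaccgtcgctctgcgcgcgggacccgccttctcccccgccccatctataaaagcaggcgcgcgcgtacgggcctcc
Socs1, chr16:10785537-10785736, minus strand: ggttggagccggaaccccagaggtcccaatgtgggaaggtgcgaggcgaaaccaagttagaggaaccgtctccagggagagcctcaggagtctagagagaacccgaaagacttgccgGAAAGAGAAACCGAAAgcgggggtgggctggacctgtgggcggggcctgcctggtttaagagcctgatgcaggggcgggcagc
The Irf1 promoter held 1 match to TTCNNNGAA, TTCCCCGAA, beginning 90 bases before the start. The Irf8 promoter held 2, TTCTCGGAA and TTCAGAGAA, beginning 171 and 153 bases before it. The Socs1 promoter held 2 overlapping GAAA repeats, GAAAGAGAAA and GAAACCGAAA, beginning at 83 and 77 bases before the start, and no TTCNNNGAA. RefSeq gives Irf1 and Irf8 each a second start, whose windows held neither pattern. Of 32851 mouse promoter windows of 300 bases, 8.3% held TTCNNNGAA and 3.44% held the GAAA repeat on either strand. In the same windows Ifng held 1 TTCNNNGAA match, and Ifngr1, Ifngr2, Jak1 and Jak2 held neither pattern. A match is a run of letters and was not tested for binding in these cells.

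Cells of 3 lymphocyte clusters were gated. Cluster 9 was led by Cd8a and Cd8b1, cluster 11 by Tnfrsf4 and included Foxp3 among its leading genes, and cluster 7, led by Gzmc, Gzma and Ncr1, mixed NK and T cells, since T cell and NK cell markers were detected in it in equal number (8 of each). They held 286 untreated and 304 NAM cells. The Cd3e+ Cd8a+ gate (CD8 T cells, without Ncr1) took 92 and 140 of them, the Cd3e+ Cd8a- gate 91 and 90, and the Cd3e- Ncr1+ gate (NK-type cells) 76 and 40. The gates matched genes not used to draw them. After every cell was thinned to 3000 UMIs, Cd8b1 was seen in 81.5% and 87.9% of Cd3e+ Cd8a+ cells, Foxp3 in 34.1% and 32.2% of Cd3e+ Cd8a- cells, and Klrb1c in 44.7% and 45% of Cd3e- Ncr1+ cells.

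Ifng, the only type II interferon gene (ENSMUSG00000055170, chr10:118441046-118445892, plus strand), came mostly from CD8 T cells in both libraries. The untreated library had 146 Ifng UMIs in 53 cells and the NAM library 240 in 67 cells. The lymphocyte clusters held 91.1% (95% Clopper-Pearson interval 85.3 to 95.2) and 90.8% (86.5 to 94.2) of these UMIs. The Cd3e+ Cd8a+ gate alone held 67.8% (59.6 to 75.3) of untreated and 79.6% (73.9 to 84.5) of NAM Ifng UMIs. The share of cluster 9, led by Cd8a and Cd8b1, was 78.77% and 78.75%, so the shift of the gate was not seen there. All intervals here cover counting error only, and since Ifng UMIs came in bursts within single cells they understate the spread.

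Within the Cd3e+ Cd8a+ gate, Ifng was detected in a minority of cells. An Ifng UMI was found in 26 of 92 untreated cells (28.3%, 19.4 to 38.6) and 37 of 140 NAM cells (26.4%, 19.3 to 34.5), and at equal depth in 22.8% and 22.9%. The share in macrophage-like cells, which should lack the gene, was 0.0939% and 0.171% at equal depth, with 9 and 15 Ifng UMIs over all of them. Monocyte-like cells had an Ifng UMI in 0 of 256 untreated cells and in 2 of 356 NAM cells. The former allows a share of about 1.17%, taken as 3 cells of 256 and not as a Clopper-Pearson limit.

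The cells that had Ifng differed widely in how much. In the untreated gate the positive cells ranged from 1 to 20 UMIs with a median of 2, and the 5 highest held 52 of 99 UMIs. In the NAM gate they ranged from 1 to 42 with a median of 2, and the 5 highest held 115 of 191. The 2 highest NAM cells, at 42 and 34 UMIs, lay above every untreated cell in UMIs but held 28164 and 10750 UMIs of all genes. Per UMI they were at 1491 and 3163 CPM, against 3185 CPM in the untreated cell with 20 Ifng UMIs and 3860 CPM in a NAM cell with 18. Whether the deepest of them was a doublet was not tested. Cells with 10 or more Ifng UMIs numbered 1 in the untreated gate and 5 in the NAM gate.

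**Figure D1:**
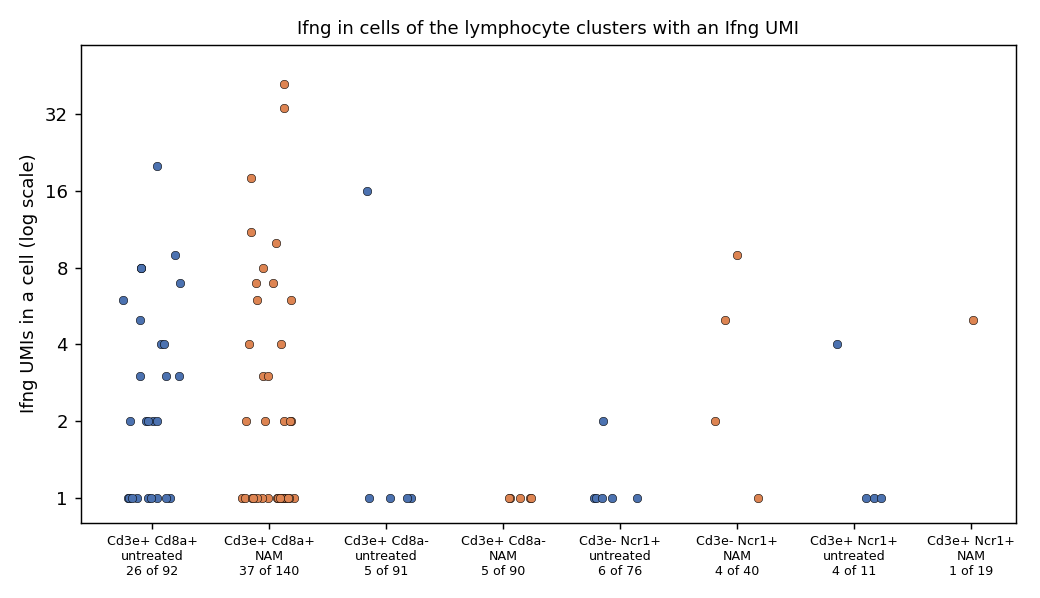
Ifng UMIs of each cell with at least 1 Ifng UMI (vertical axis, log scale) in 4 lymphocyte gates of the untreated and the NAM library, with the number of such cells of all cells of the gate under each column. Most positive cells lie in the Cd3e+ Cd8a+ gate, 26 of 92 and 37 of 140, and 1 untreated Cd3e+ Cd8a- cell with 16 UMIs stands apart from the rest of its gate.

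Summed over the gate, Ifng was at 209 CPM (170 to 254) in the untreated library and 260 CPM (224 to 299) in the NAM library, a log2 ratio of 0.31 whose interval included 0 (-0.04 to 0.68). The direction did not hold when each cell counted equally: the mean over cells gave -0.21 and thinned cells -0.19. The gate was not the same mixture in both libraries, since cluster 9 made up 71.7% of its untreated and 82.1% of its NAM cells. Within cluster 9 the gated cells were at 299 and 306 CPM (log2 ratio 0.04, -0.33 to 0.41), and the gated cells of cluster 7 had 3 and 4 UMIs. Over all lymphocyte clusters the log2 ratio was 0.67 (0.35 to 0.99), beside a Cd3e+ Cd8a+ part of 92 of 286 untreated and 140 of 304 NAM cells.

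The other gates rested on a handful of cells. In the Cd3e+ Cd8a- gate Ifng was at 20 UMIs in 5 untreated cells and 5 UMIs in 5 NAM cells (41.7 and 10.6 CPM, log2 ratio -1.98, -3.75 to -0.52), but 16 of the 20 were in 1 untreated cell, and without the highest cell of each library the ratio was 0.028 (-2.40 to 2.45). Of these UMIs 18 untreated and 2 NAM, those of the highest cell included, were in gated cells of cluster 9, led by Cd8a and Cd8b1. Whether Cd8a RNA went undetected in those cells was not tested. In the Cd3e- Ncr1+ gate it was at 7 UMIs in 6 cells and 17 UMIs in 4 cells (15.2 and 80.8 CPM, log2 ratio 2.41, 1.07 to 3.92), and without the highest cell of each library, which held 9 UMIs in the NAM library, the ratio was 1.82 (0.03 to 3.78). With 2 or more UMIs required of each gating gene it was 1.71 (-0.09 to 3.66). Cluster 11, the Foxp3 cluster, had 1 and 5 Ifng UMIs, all 5 in 1 cell.

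Genes of the effector programme were read in the same Cd3e+ Cd8a+ cells, split by whether an Ifng UMI was present. The split groups had close depths, with medians of 4426.5 and 4502.5 UMIs for untreated and 4828 and 4162 UMIs for NAM cells. The chemokine gene Ccl4 was higher in Ifng-positive cells in both libraries, by log2 ratios of 2.74 (2.32 to 3.17) and 2.33 (1.98 to 2.69), and was seen at equal depth in 61.5% of positive against 27.3% of negative cells (untreated) and 43.2% against 31.1% (NAM). Of the 216 Ccl4 UMIs of NAM positive cells, 86 were in 1 cell. Ccl3, another inflammatory chemokine gene, was at 2677 against 76.8 CPM (untreated) and 393 against 91.8 CPM (NAM), although 146 of its 363 UMIs in untreated positive cells were in 1 cell. Its shares were 42.3% against 13.6% and 29.7% against 8.74%. Within cluster 9, which held 24 of 26 untreated and 36 of 37 NAM positive cells, Ccl4 kept ratios of 2.48 (2.02 to 2.96) and 2.34 (1.96 to 2.74).

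Irf8 was higher in Ifng-positive cells of the whole gate, while within cluster 9 both intervals included 0. In the gate it was at 841 CPM in positive and 511 CPM in negative untreated cells (log2 ratio 0.72, 0.36 to 1.07) and at 970 and 780 CPM in NAM cells (0.32, 0.07 to 0.56). Negative cells included most of the gated cells of cluster 7, whose Irf8 was at 115 and 70.2 CPM. Within cluster 9 the Irf8 ratio was 0.26 (-0.10 to 0.62) in untreated cells, and in NAM cells positive and negative cells were at 990 and 984 CPM (-0.24 to 0.25 on the log2 scale).

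The effector and inhibitory receptor genes were mixed. Prf1, which encodes perforin, was higher in untreated positive cells (2.70, 1.12 to 4.54, on 13 and 5 UMIs) and had a ratio of 0.32 (-1.40 to 1.88) in NAM cells. Tnfrsf9, which encodes the activation receptor 4-1BB, had ratios of 0.78 (0.48 to 1.08) and 0.18 (-0.03 to 0.39), and Tnf, on 12 and 21 UMIs in all, of 0.83 (-1.16 to 2.71) and 1.61 (0.24 to 3.03). Within cluster 9 the ratios of Prf1 were 2.43 in untreated and -0.04 in NAM cells, the latter with an interval that included 0, and those of Tnfrsf9 were 0.52 (0.21 to 0.83) and -0.06 (-0.27 to 0.16). Those of Tnf were 1.05 and 1.30 there, both with intervals that included 0. Gzmb, a granzyme gene, was higher in positive cells of the gate, by 0.55 (0.15 to 0.95) and 0.24 (0.00 to 0.48), and within cluster 9 by 1.23 (0.72 to 1.76) in untreated and 0.09 (-0.17 to 0.34) in NAM cells. Havcr2, which encodes TIM-3, had ratios of 2.13 (1.19 to 3.11) and 0.75, the latter with an interval that included 0, in the gate and 1.63 (0.68 to 2.64) and 0.43 (-0.33 to 1.18) within cluster 9. Lag3 had ratios of 0.17 (-0.17 to 0.51) and 0.54 (0.30 to 0.78) in the gate, but -0.37 (-0.71 to -0.03) and 0.22 (-0.03 to 0.46) within cluster 9. Pdcd1, which encodes PD-1, had ratios of 0.27 (-0.09 to 0.62) and 0.06 (-0.20 to 0.32) in the gate. Ccl5, a memory and effector chemokine gene, had ratios of -0.46 (-0.63 to -0.29) and -0.33 (-0.45 to -0.21), while at equal depth it was seen in 69.2% of positive against 60.6% of negative untreated cells and 62.2% against 61.2% of NAM cells. Xcl1 had a ratio of -0.65 (-1.38 to 0.02) in untreated and 2.61 (2.37 to 2.86) in NAM cells, but 349 of its 500 UMIs in NAM positive cells were in 1 cell. Negative cells may have held Ifng RNA below detection at this depth.

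The receptor chains had opposite distributions. Ifngr1 (ENSMUSG00000020009, chr10:19591949-19610229, plus strand) was highest in lymphocytes, and Ifngr2 (ENSMUSG00000022965, chr16:91547072-91565623, plus strand) was nearly absent from them. In the lymphocyte clusters Ifngr1 was at 696 CPM (655 to 739) in the untreated library and 705 CPM (664 to 747) in the NAM library, against 134 (130 to 139) and 138 (134 to 143) in macrophage-like cells. Ifngr2 was at 14.8 CPM (9.4 to 22.3) and 11.3 CPM (6.67 to 17.8) in the lymphocyte clusters, against 147 (142 to 152) and 164 (159 to 169) in macrophage-like cells. The 3 lymphocyte clusters lay above all myeloid clusters for Ifngr1 and below all of them for Ifngr2 in both libraries.

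At equal depth an Ifngr2 UMI was seen in 4.2% and 4.61% of lymphocytes and in 35.1% and 37.5% of macrophage-like cells. Lymphocytes carried some macrophage RNA, with the 10 macrophage markers summing to 1610 and 1442 CPM, against 33517 and 34295 CPM in macrophage-like cells, and the part of this RNA in their Ifngr2 UMIs was not tested. Both chains were seen in the same thinned cell in 2.17% and 1.43% of Cd3e+ Cd8a+ cells and in 11.9% and 12.9% of macrophage-like cells. Among the gates Ifngr1 was at 886 CPM (802 to 976) and 1065 CPM (930 to 1213) in Cd3e- Ncr1+ cells, at 644 and 777 CPM in Cd3e+ Cd8a- cells and at 483 (423 to 550) and 529 CPM (478 to 584) in Cd3e+ Cd8a+ cells, so the gate with most Ifng had the least Ifngr1 of the 3.

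**Figure D2:**
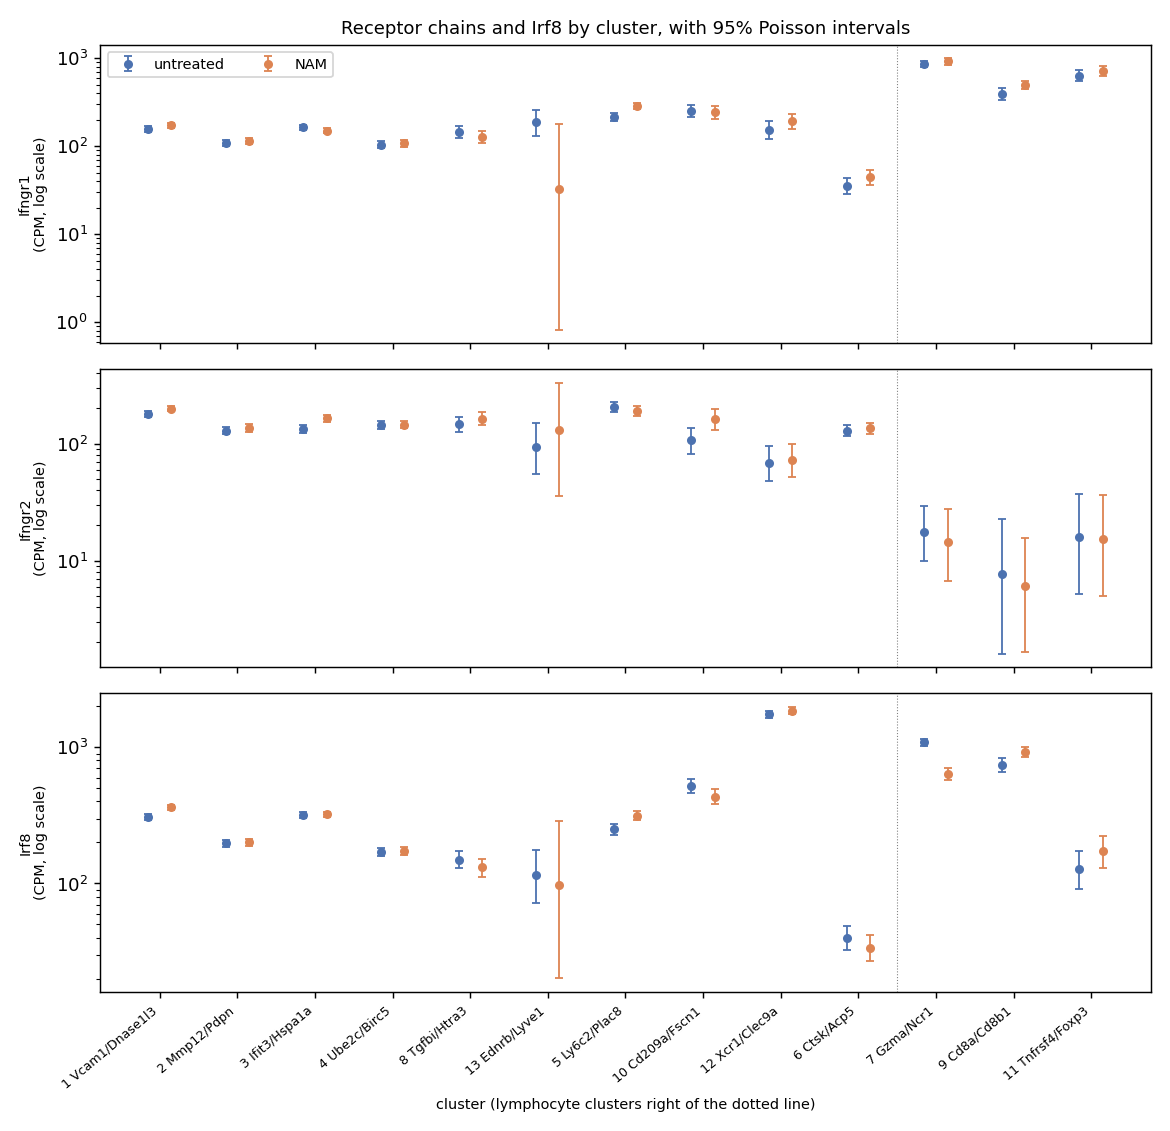
Level of Ifngr1, Ifngr2 and Irf8 (CPM, log axes) in each of 13 clusters of the untreated and the NAM library, with 95% Poisson intervals. Ifngr1 is highest and Ifngr2 lowest in the 3 lymphocyte clusters to the right of the dotted line, and the Ctsk/Acp5 cluster has the lowest Irf8 and, in the untreated library, the lowest Ifngr1.

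Among myeloid cells the receptor varied by subset. Cluster 6, left unnamed and led by Ctsk, Atp6v0d2 and Acp5, genes known from bone-resorbing osteoclasts, had 35.3 CPM (28.4 to 43.5) of Ifngr1 in the untreated library and 44.4 CPM (36.7 to 53.2) in the NAM library. These intervals lay below those of the other myeloid clusters in both libraries, apart from the NAM cells of cluster 13, of which there were 7 with 1 Ifngr1 UMI. Its Ifngr2, at 129 and 136 CPM, was within the range of the macrophage-like clusters. Cells of the Xcr1/Clec9a dendritic-like cluster, which carries markers of cross-presenting dendritic cells, had the lowest Ifngr2 among the myeloid clusters, 69 CPM (48.1 to 96) and 73 CPM (51.9 to 99.9).

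Between the libraries the receptor genes were within 1.5 fold in the 3 myeloid classes. In the Ly6c2/Plac8 monocyte-like cluster Ifngr1 was at 213 CPM (192 to 236) in the untreated and 290 CPM (268 to 313) in the NAM library, a log2 ratio of 0.44 (0.26 to 0.63), which was 0.21 (-0.05 to 0.47) with thinned cells. In macrophage-like cells its ratio was 0.04 (-0.03 to 0.11). Ifngr2 had ratios of 0.16 (0.10 to 0.23) in macrophage-like and 0.42 (0.04 to 0.81) in dendritic-like cells and -0.11 (-0.32 to 0.10) in monocyte-like cells. In the Cd209a/Fscn1 cluster alone Ifngr2 was past 1.5 fold, at 107 CPM (82.4 to 137) and 162 CPM (131 to 197), a ratio of 0.59 (0.12 to 1.07).

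The kinases differed from each other. Jak1 (ENSMUSG00000028530, chr4:101152367-101265282, minus strand), which serves many cytokine receptors, was at 201 CPM (179 to 224) and 221 CPM (199 to 246) in lymphocytes and 78.6 (75 to 82.4) and 68 CPM (64.8 to 71.4) in macrophage-like cells. Its log2 ratio was below 0 in 10 of 10 myeloid or unnamed clusters, with 2 of the 10 intervals excluding 0, and was -0.21 (-0.31 to -0.11) in macrophage-like and -0.58 (-1.10 to -0.08) in dendritic-like cells. In cluster 7 it was 0.39 (0.09 to 0.69).

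Jak2 (ENSMUSG00000024789, chr19:29251828-29313080, plus strand), the kinase of the Ifngr2 chain, was lower in the NAM library across the myeloid cells. It was at 17.7 CPM (16 to 19.5) in untreated and 10.2 CPM (8.99 to 11.6) in NAM macrophage-like cells, a log2 ratio of -0.79 (-1.02 to -0.56). Monocyte-like cells had 70.9 CPM (58.9 to 84.6) and 28.4 CPM (21.9 to 36.3), a ratio of -1.32 (-1.78 to -0.87), and at equal depth 20.7% and 5.62% of them had a Jak2 UMI. In the same monocyte-like cells the 10 macrophage markers, all detected, summed to 9265 and 11462 CPM and the 9 monocyte markers to 6645 and 5626 CPM, and the part of this shift in the monocyte-like ratios of Jak2 and the other genes was not tested. Dendritic-like cells, with the highest levels, had 93.1 CPM (76 to 113) and 48.2 CPM (36.3 to 62.8), a ratio of -0.95 (-1.45 to -0.46).

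The difference in Jak2 was spread over the subsets. Its ratio was below 0 in each of the 9 myeloid or unnamed clusters with 20 or more UMIs, and 7 of the 9 intervals excluded 0. The exceptions were the Ctsk/Acp5 cluster (-1.15, -2.57 to 0.14) and the Ifit3/Hspa1a cluster, where the level was 11.2 and 10.4 CPM and the ratio -0.11 (-0.67 to 0.45). Jak2 remained lower in macrophage-like cells with no Hspa1a or Hspa1b UMI, at -1.09 (-1.47 to -0.71). In lymphocytes the ratio was -0.56 (-1.21 to 0.07).

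Irf1 (ENSMUSG00000018899, chr11:53770014-53778374, plus strand), the first-wave factor of the pathway, was higher in the NAM library in almost every population. Macrophage-like cells had 74.2 CPM (70.6 to 77.8) in the untreated and 126 CPM (121 to 130) in the NAM library, a log2 ratio of 0.76 (0.67 to 0.85). Monocyte-like cells, the highest in both libraries, had 128 CPM (112 to 146) and 220 CPM (201 to 240), a ratio of 0.78 (0.55 to 1.01), and dendritic-like cells 65.8 CPM (51.4 to 82.8) and 109 CPM (90.4 to 130), a ratio of 0.73 (0.30 to 1.17). The lymphocyte clusters were also higher, at 61.3 and 104 CPM (0.76, 0.39 to 1.14).

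The size of the Irf1 difference varied among macrophage-like subsets. It was 1.06 (0.91 to 1.21) in cluster 1, led by Vcam1 and Dnase1l3 with Cxcl9, Cd74 and H2-Eb1 among its leading genes, where the level was 90.1 CPM in untreated and 188 CPM in NAM cells. It was 1.09 (0.58 to 1.62) in the Tgfbi/Htra3 cluster and 0.27 (0.06 to 0.48) in the Mmp12/Pdpn cluster, at 62.4 and 75.2 CPM. The intervals of clusters 1 and 2 do not meet. Of the 9 myeloid or unnamed clusters with 20 or more UMIs all 9 ratios were above 0 and 7 intervals excluded 0, the exceptions being the Ctsk/Acp5 cluster (0.36, -0.08 to 0.80) and the Xcr1/Clec9a cluster (0.42, -0.41 to 1.28).

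Socs1 (ENSMUSG00000038037, chr16:10782240-10785536, minus strand), the feedback inhibitor, differed in the same direction as Irf1. Macrophage-like cells had 36.9 CPM (34.4 to 39.5) in the untreated and 69.5 CPM (66.2 to 72.9) in the NAM library, a log2 ratio of 0.91 (0.79 to 1.04). Monocyte-like cells had 74.4 CPM (62.1 to 88.4) and 162 CPM (146 to 179), a ratio of 1.12 (0.83 to 1.42). Dendritic-like cells had 36.5 CPM (26.1 to 49.7) and 115 CPM (96 to 136), a ratio of 1.65 (1.13 to 2.20), whose interval lies above that of macrophage-like cells and meets that of monocyte-like cells.

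All 9 myeloid or unnamed clusters with 20 or more Socs1 UMIs had intervals above 0, from 0.37 (0.03 to 0.71) in the Ctsk/Acp5 cluster and 0.47 (0.15 to 0.79) in the Mmp12/Pdpn cluster to 1.69 (1.06 to 2.37) in the Cd209a/Fscn1 cluster. Lymphocytes already had the highest untreated level, 104 CPM (89 to 122), and reached 129 CPM (112 to 148) in the NAM library, a ratio of 0.30 whose interval touched 0 (-0.00 to 0.61). An Irf1 and a Socs1 UMI occurred in the same thinned macrophage-like cell in 2.39% and 5.43% of cells, where the product of the single shares was 1.41% and 3.78%. In monocyte-like cells the corresponding shares were 7.81% and 16%, against products of 4.77% and 10.9%.

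Irf1 and Socs1 were also read in cells with no UMI of Hspa1a and Hspa1b, other heat shock genes not being considered. In such macrophage-like cells the Irf1 ratio was 0.78 (0.62 to 0.94) and the Socs1 ratio 0.94 (0.72 to 1.17), and in such monocyte-like cells they were 1.02 (0.69 to 1.36) and 1.59 (1.14 to 2.06). In dendritic-like cells without these UMIs Socs1 was at 1.59 (0.67 to 2.62) and Irf1 at 0.50, with an interval that included 0 (-0.25 to 1.29).

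**Figure D3:**
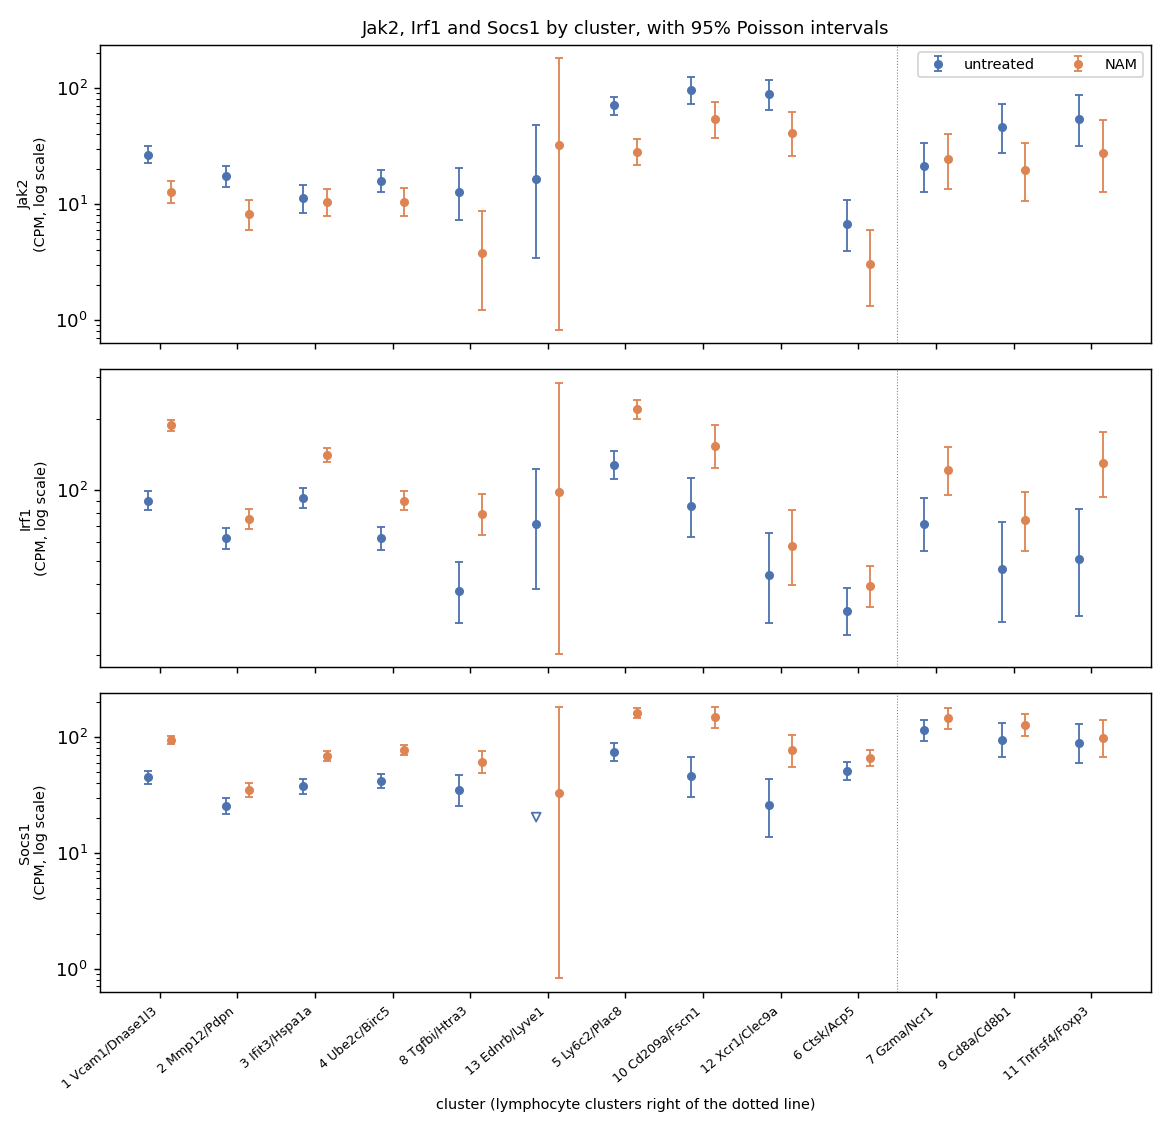
Level of Jak2, Irf1 and Socs1 (CPM, log axes) in each of 13 clusters of the untreated and the NAM library, with 95% Poisson intervals and an open triangle at the upper limit where no UMI was counted. In the Vcam1/Dnase1l3, Mmp12/Pdpn, Ube2c/Birc5, Tgfbi/Htra3, monocyte-like and Cd209a/Fscn1 clusters Jak2 is lower in the NAM library. Irf1 and Socs1 are higher in the same clusters, and the intervals of these ratios exclude 0.

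Irf8 (ENSMUSG00000041515, chr8:120736358-120756694, plus strand) varied more between clusters than between the libraries. Its level ran from 1743 CPM (1630 to 1862) and 1862 CPM (1748 to 1981) in the Xcr1/Clec9a cluster, whose development depends on it, to 40.1 CPM (32.7 to 48.7) and 33.8 CPM (27.1 to 41.6) in the Ctsk/Acp5 cluster. Irf8 is known to restrain osteoclast formation. Of 12 neighbouring pairs in the order of clusters, intervals met in 4 (untreated) and 5 (NAM), and for Jak2, counted on fewer UMIs and with wider intervals, in 12 of 12 in both, although its untreated level ran from 6.75 CPM in the Ctsk/Acp5 cluster to 97 CPM in the Cd209a/Fscn1 cluster. Macrophage-like cells were at 240 CPM (234 to 247) and 265 CPM (259 to 272), a log2 ratio of 0.14 (0.09 to 0.19), and monocyte-like cells at 250 (227 to 274) and 315 CPM (292 to 339), a ratio of 0.33 (0.16 to 0.51).

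In lymphocytes Irf8 differed in opposite directions between gates. Cd3e+ Cd8a+ cells had 605 CPM (537 to 680) and 838 CPM (773 to 906), a log2 ratio of 0.47 (0.26 to 0.68), and within cluster 9 these gated cells had a ratio of 0.25 (0.04 to 0.46). Cd3e- Ncr1+ cells had 1771 CPM (1652 to 1897) and 1369 CPM (1215 to 1536), a ratio of -0.37 (-0.57 to -0.18). Cd3e+ Cd8a- cells were lowest, at 127 and 106 CPM (-0.27, -0.84 to 0.30). The Irf8 locus overlaps another annotated gene on the same strand, Gm20388, as Ifng does Gm49751 and as Jak1 does another gene, and reads shared with such a gene could have been left uncounted.

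**Figure D4:**
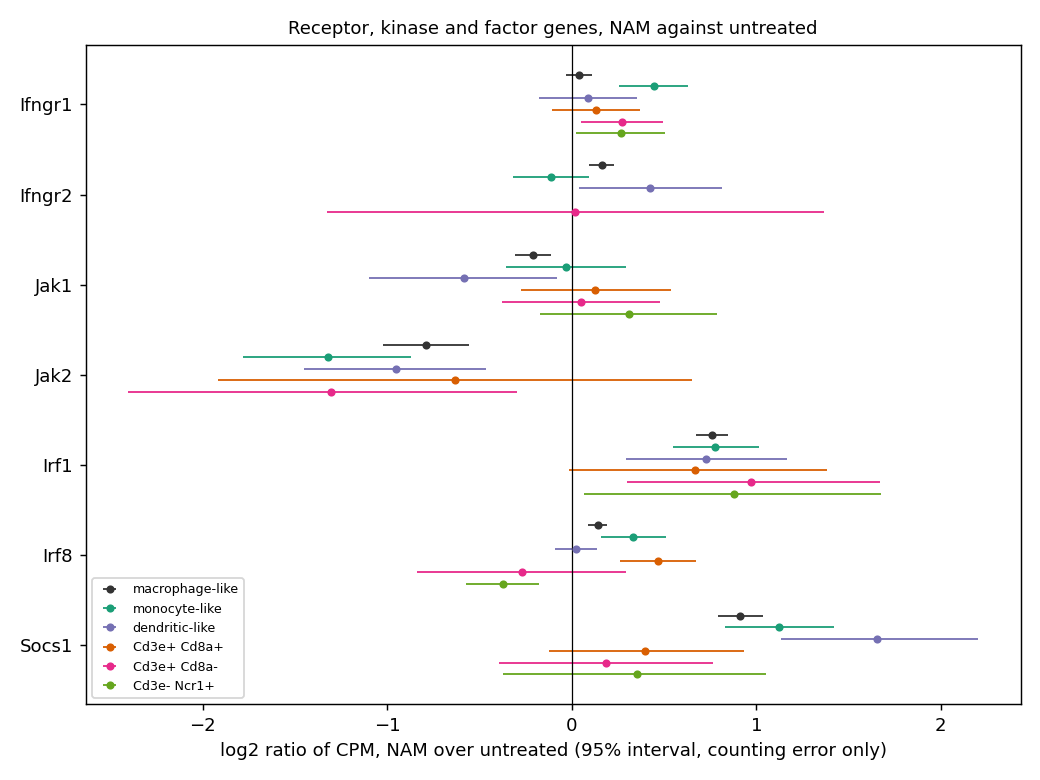
Log2 ratio of CPM, NAM over untreated (horizontal axis), of 7 genes in 3 myeloid classes and 3 lymphocyte gates, with 95% intervals of counting error, drawn where 20 or more UMIs were counted. Jak2 lies below 0 and Irf1 above 0 in all units drawn, and Irf8 lies on opposite sides of 0 in the Cd3e+ Cd8a+ and Cd3e- Ncr1+ gates.

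Irf1, Socs1 and Jak2 passed 1.5 fold in all 3 myeloid classes. In macrophage-like cells, of 12020 genes with 20 or more UMIs, 3.01% were higher and 6.76% lower by 1.5 fold or more in the NAM library. Of the 8 members 3 were higher (Irf1, Socs1 and Ifng, the last on 9 and 15 UMIs whose source was not tested) and 1 was lower (Jak2). In monocyte-like cells, where 9.03% of genes were higher and 9.53% lower, 7 members had 20 or more UMIs, of which Irf1 and Socs1 were higher and Jak2 lower. In dendritic-like cells, with 9.89% higher and 11.7% lower, the same 3 of 7 members passed in the same directions.

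In the lymphocyte gates the counts rested on fewer UMIs. In the Cd3e+ Cd8a+ gate, where 10.2% of genes were higher and 11.3% lower, Irf1 was higher and Jak2 lower among 7 members with 20 or more UMIs. In the Cd3e+ Cd8a- gate, with 11.2% higher and 11.8% lower, Irf1 was higher and Ifng and Jak2 lower among 8. In the Cd3e- Ncr1+ gate, with 10.5% higher and 14.8% lower, Ifng and Irf1 were higher and none was lower among 6. The Ifng counts of the latter 2 gates are no support, since Ifng reached 20 UMIs there mainly through 1 library, with 20 and 5 UMIs and with 7 and 17.

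Known interferon gamma targets, 20 genes such as Cxcl9, the guanylate-binding Gbp genes and the antigen-processing genes Psmb8 and Tap1, were slightly higher in NAM macrophage-like cells. Of 19 with 20 or more UMIs, 18 had ratios above 0, with a median of 0.33 where the median of all genes was -0.03. By 1.5 fold 2 of the 19 were higher and 0 lower, where 3.01% and 6.76% of all genes were. Those 2 were Batf2 at 20 and 31.9 CPM (0.68, 0.51 to 0.85) and Nos2, the inducible nitric oxide synthase, at 2.11 and 6.91 CPM (1.71, 1.24 to 2.21). Cxcl9, a T cell attractant, was at 242 and 351 CPM (0.53, 0.48 to 0.58). The exception was the adhesion gene Icam1, at 98.9 and 77 CPM (-0.36, -0.45 to -0.27).

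In monocyte-like cells 13 of 19 targets were above 0 (median 0.20), and Cxcl9 was at 336 and 338 CPM (0.01, -0.15 to 0.17). By 1.5 fold 2 of the 19 were higher and 3 lower there, where 9.03% and 9.53% of all genes were. Batf2 (0.98, 0.46 to 1.52) was among the higher, and Icam1 (-0.83, -1.07 to -0.59) and Cd40 (-0.75, -0.97 to -0.53) among the lower. In dendritic-like cells 13 of 18 were above 0 (median 0.23), with 12 of 18 in the Cd209a/Fscn1 cluster (median 0.18) and 5 of 13 in the Xcr1/Clec9a cluster (median -0.38). In dendritic-like cells together 6 of the 18 were higher and 3 lower by 1.5 fold, where 9.89% and 11.7% of all genes were. Serpina3g (0.84, 0.52 to 1.17), Fcgr1 (0.86, 0.31 to 1.42), Gbp4 (0.70, 0.24 to 1.17) and Igtp (0.69, 0.21 to 1.19) were among the higher, whereas Cd274, which encodes PD-L1 (-1.43, -1.94 to -0.94), Icam1 (-0.92, -1.33 to -0.52) and Cd40 (-0.60, -0.93 to -0.28) were lower.

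Type I interferon targets, read beside them since the pathways share Jak1, varied by cluster. In macrophage-like cells together 4 of 10 were above 0 (median -0.09), with Oasl1 at -0.58 (-0.69 to -0.47). By cluster 7, 6 and 7 of 10 were above 0 in clusters 1, 2 and 4 (medians 0.12, 0.16 and 0.24), against 2 of 10 in the Ifit3/Hspa1a cluster (median -0.21) and 2 of 8 in the Tgfbi/Htra3 cluster (median -0.58). Interferon gamma targets had medians of 0.51, 0.24 and 0.35 in clusters 1, 2 and 4, 0.18 in the Ifit3/Hspa1a cluster and 0.02 in the Tgfbi/Htra3 cluster. Type I targets were above 0 in 6 of 9 in the Ctsk/Acp5 cluster (median 0.20), in 5 of 6 in the Cd3e+ Cd8a- gate (median 0.66) and in 4 of 4 in cluster 9 (median 1.74), where Ifit1 and Rsad2 reached 20 UMIs only through the NAM library, at 2 and 20 and at 1 and 22 UMIs. In the Cd3e+ Cd8a+ gate, most of whose cells are of cluster 9, 3 of 4 were above 0 (median 0.11). In dendritic-like cells 0 of 10 were above 0 (median -1.05) and 9 were lower by 1.5 fold, where 11.7% of all genes were. Among these 9 were Rsad2 (-1.51, -2.21 to -0.86), Oasl1 (-1.14, -1.64 to -0.65) and Irf7 (-0.67, -0.84 to -0.50). The part of the heat shock difference between the libraries in these ratios was not tested. In monocyte-like cells 3 of 10 were above 0 (median -0.34), with Oasl1 at -0.89 (-1.17 to -0.61) and Mx1 at -0.68 (-1.26 to -0.10).

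**Figure D5:**
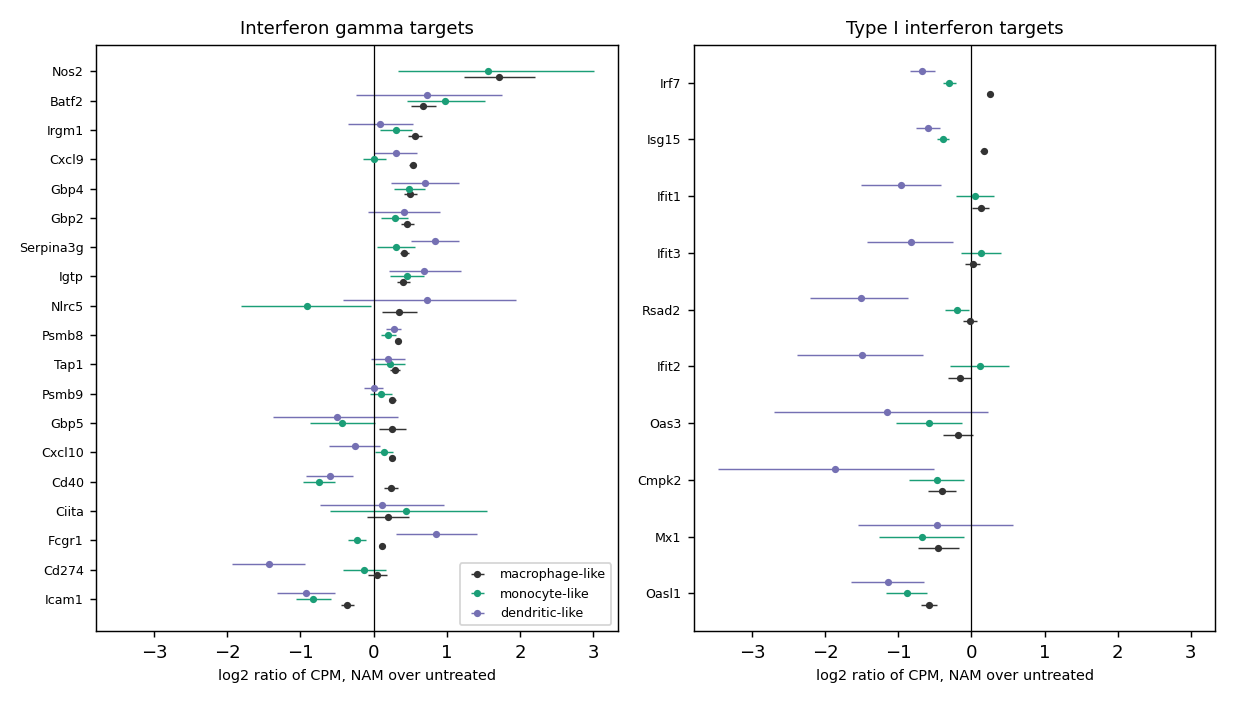
Log2 ratio of CPM, NAM over untreated (horizontal axes), for interferon gamma targets and type I interferon targets in macrophage-like, monocyte-like and dendritic-like cells, with 95% intervals of counting error, for genes with 20 or more UMIs. In macrophage-like cells 18 of 19 interferon gamma targets and 4 of 10 type I targets lie above 0, and in dendritic-like cells no type I target does.

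Of the 13 signalling partners and inhibitors, among them Ptpn2 and Socs3, 0 passed 1.5 fold in macrophage-like cells in either direction (median 0.00). Socs3, a relative of Socs1 induced through other cytokines, was at 386 and 403 CPM there (0.06, 0.02 to 0.10). In dendritic-like cells the phosphatase gene Ptpn6 was higher (0.60, 0.29 to 0.92) and Usp18, an inhibitor of type I signalling, lower (-0.65, -1.04 to -0.26). Of the listed cytokine genes that induce Ifng, 6 had 20 or more UMIs in dendritic-like cells. By 1.5 fold 2 were higher and 2 lower, where 9.89% and 11.7% of all genes were. Among the 6, Il12b, a subunit of interleukin 12, was at 239 and 136 CPM (-0.82, -1.11 to -0.52), and Ebi3, a subunit of interleukin 27, at 40.2 and 67.5 CPM (0.75, 0.20 to 1.32). In macrophage-like cells 0 of 8 were higher and 2 lower, where 3.01% and 6.76% of all genes were.

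On the lymphocyte side, of 12 genes known to prepare Ifng expression (Tbx21, Eomes, Stat4, the interleukin 12 and 18 receptors and others), 10 had 20 or more UMIs in the Cd3e+ Cd8a+ gate, with 6 above 0, a median of 0.04 and 1 lower by 1.5 fold. Of the 20 effector and other genes read beside Ifng, 16 had 20 or more UMIs in the gate, of which 3 were higher and 4 lower by 1.5 fold (median 0.17), where 10.2% and 11.3% of all genes were. Those higher were Gzmb, Fasl and Xcl1, and those lower Ccl3, Gzma, Prf1 (18 and 17 UMIs, -0.72, -1.76 to 0.32), and Csf2 (15 and 13 UMIs). Gzmb was at 479 and 897 CPM (0.91, 0.69 to 1.13), Fasl at 116 and 199 CPM (0.77, 0.32 to 1.25) and Xcl1 at 238 and 934 CPM (1.97, 1.68 to 2.27), the last with 349 of 687 NAM UMIs in 1 cell. Ccl3, at 821 and 184 CPM (-2.16, -2.45 to -1.87), was lower, and without the highest cell of each library its ratio was -1.82 (-2.16 to -1.48) and that of Xcl1 1.37 (1.03 to 1.74). Gzma was at 245 and 59.8 CPM (-2.03, -2.57 to -1.52), but 112 of its 116 untreated UMIs were in 1 cell, and without the highest cell of each library 4 and 23 UMIs gave 1.87 (0.33 to 3.87). In the Cd3e- Ncr1+ gate Gzmb (0.76, 0.61 to 0.92) and Gzma (0.65, 0.54 to 0.76) were higher and Xcl1 (-0.66, -0.85 to -0.48) lower.

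The genes whose pattern was most like each member were sought by Pearson r of log2(CPM + 1), a description with no test. Over 24 points, 12 clusters in each of the 2 libraries, Irf1 was most like Gbp4 (0.78), Ifi47 (0.77) and Junb (0.76), of which the first pair are interferon-induced GTPase genes. Socs1 was most like Trim12c (0.80), Mta3 (0.78) and Ankrd11 (0.77), and Irf8 like Zyx (0.93), Gpr171 (0.89) and Tmsb4x (0.89). Ifng, over 10 points from 5 gates, was most like Psmd5 (0.94), Pi4ka (0.93) and Ttc5 (0.93), among 5629 genes compared on few UMIs. The points of a library share its preparation and depth.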

How the data were processed

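CD45+ cells of TSA tumours were profiled as 1 untreated and 1 NAM library (Single Cell 3′ v2). The authors made the deposited UMI counts with Cell Ranger on mm10 and filtered cells; the annotation release is not given in the sources used here. The lowest cell had 3018 and 3001 UMIs, and no doublets were removed here. Counts were scaled to 10000 per cell and logged, and 2775 variable genes, 35 components, a Harmony-type correction, 30 neighbours and Leiden clustering (resolution 0.6, scanpy 1.11.5) gave 13 clusters. Classes were named from marker lists, with naming thresholds set after the clusters were seen. UMIs were summed per class or gate and library as counts per 1000000 (CPM). With 1 library per group there is no test: intervals are exact Poisson, Clopper-Pearson or conditional binomial at 95%, and "past 1.5 fold" applies to genes with 20 or more UMIs. The ratio code was tested on simulated data. Shares at equal depth used cells thinned to 3000 UMIs (0 cells had fewer). List genes are named at 100 or more UMIs and a log2 ratio of 0.58 or more either way, others for their role. Likeness used genes with 50 or more UMIs. Promoters came from RefSeq, with all 8 genes matched, and coordinates from GENCODE (GRCm38). A few genes are not reported here. Genes and lists were chosen with earlier results of these data known.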

Additional observations from a re-analysis of the deposited data

Results flagged for a closer look

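Irf8 and Ifng had ratios of NAM over untreated with whole intervals on opposite sides of 0 in different cells, and neither difference was tested, since each group is 1 library. Irf8 had log2 ratios of 0.47 in Cd3e+ Cd8a+ cells, 0.33 in monocyte-like cells and 0.14 in macrophage-like cells, against -0.37 in Cd3e- Ncr1+ cells. The makeup of the Cd3e+ Cd8a+ gate moved with the library, and within cluster 9 its ratio was 0.25. Ifng had log2 ratios of 2.41 in Cd3e- Ncr1+ cells and -1.98 in Cd3e+ Cd8a- cells. The former was 1.71, with an interval that included 0 (-0.09 to 3.66), when the gate asked for 2 or more UMIs, and the latter had 16 of 20 untreated UMIs in 1 cell and was 0.028 without the highest cell of each library.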

How the results depend on the processing

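Each of 15 values was recomputed, under 118 alternatives in all. Of these, 104 left the value within its interval and 3, all for Ifng, changed its sign. Leaving out the 5 cells of each library with most Ifng UMIs gave no usable ratio in the Cd3e+ Cd8a- and Cd3e- Ncr1+ gates. These cases are not among the 118. In the Cd3e+ Cd8a- gate such cells held all 20 untreated and all 5 NAM UMIs. In the Cd3e- Ncr1+ gate they held all 17 NAM and 6 of 7 untreated UMIs, so the ratio of 2.41 did not hold without them. The 10 myeloid values (Irf1, Socs1, Jak2 and Ifngr1) kept their sign in 90 of 90. Some alternatives, and the values of Jak2, Ifngr1, Irf1 in dendritic-like cells and Socs1 in monocyte-like and dendritic-like cells, were chosen after seeing the data. Leaving out the highest Ifng cell of each library turned the Cd3e+ Cd8a- ratio from -1.98 to 0.028. The Cd3e+ Cd8a+ ratio of 0.31 became -0.19 with thinned cells, -0.21 as the mean over cells and 0.78 within cluster 7. Thinning also gave 1.05 for Socs1 in macrophage-like cells, -1.95 for Jak2 and 0.21 for Ifngr1 in monocyte-like cells. Resolution 1.2 gave 0.87 for Irf1 and 1.08 for Socs1 in macrophage-like cells. In cells without Hspa1a or Hspa1b UMIs Irf1 was at 1.02 and Socs1 at 1.59 in monocyte-like cells and Jak2 at -1.09 in macrophage-like cells. Cells of the Cd3e+ Cd8a+ gate with 2 or more Ifng UMIs made up 18.5% (untreated) and 13.6% (NAM). With no minimum on UMIs, 11.9% of genes were higher and 16.2% lower in macrophage-like cells. Each other gate held 20 or fewer Ifng UMIs per library, which limits its values. No paired analysis was possible because each group was 1 library of pooled mice.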

Other observations

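Outside the pathway, a costimulatory receptor gene differed in the myeloid cells. Tnfrsf9 was at 24.7 and 46.4 CPM in macrophage-like cells (log2 ratio 0.91, 0.76 to 1.06) and at 43.2 and 92.3 CPM in monocyte-like cells (1.09, 0.71 to 1.49), and at 61.2 and 33.3 CPM in dendritic-like cells (-0.88, -1.49 to -0.28). In macrophage-like cells the lymphocyte gene Gzmb was at 2.61 and 5.68 CPM (1.13, 0.67 to 1.59), beside 479 and 897 CPM in Cd3e+ Cd8a+ cells, and the part of free RNA was not tested.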
